A study of Mus musculus with 6 samples.

Results

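SR proteins, the kinases that phosphorylate them, the LUC7-like and SRRM cofactors and the numbered RBM family of RNA-binding proteins were examined across macrophages cultured on 2 hydrogels. Members were matched by a pattern in the gene symbol, set with earlier results of these data known, which gave 63 of the 56691 genes in the deposited table: 11 SRSF genes, 2 TRA2 genes, 4 CLK kinases, 3 SRPK kinases, 3 LUC7-like genes, 4 SRRM genes and 36 RBM genes. The cells were of a wild-type mouse macrophage line, spelled RAW246.7 in the labels. All 6 libraries came from cells pretreated with LPS, a bacterial lipopolysaccharide and strong activator of these cells, and then kept for 24 h on a hydrogel. Cells of 3 libraries were kept on MSA-ZW and cells of 3 libraries on MSA-DA, names that the labels do not spell out, and none of these libraries came from cells without LPS or without a gel. The study's title concerns fibrin networks on macroporous gels of differing protein absorption, so the comparison asks how expression on MSA-DA differed from that on MSA-ZW.

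SR proteins carry an RNA recognition motif and a tail rich in arginine and serine, bind exonic enhancers in pre-mRNA and help the spliceosome to choose splice sites. SRPK kinases phosphorylate the tail in the cytoplasm and so license nuclear import, and CLK kinases phosphorylate it further in the nucleus and release SR proteins from nuclear speckles. Many of these genes also limit their own output by splicing their transcripts into forms with a premature stop codon or a retained intron, which gene-level counts pool with the coding forms.

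Count totals ranged from 14374912 to 18346615 per library, and members took 0.793 to 0.803% of the counts on MSA-DA and 0.746 to 0.759% on MSA-ZW. Libraries agreed less with each other on MSA-ZW (chi-square per degree of freedom 2.63 to 4.22) than on MSA-DA (1.55 to 1.63), and the 18S ribosomal RNA locus Rn18s-rs5 differed between the gels. It had 20340, 24487 and 20950 counts in the MSA-DA libraries and 44364, 73322 and 43211 in the MSA-ZW libraries, so that every MSA-ZW library was above every MSA-DA library and MSA-ZW replicate 2 was highest. Of the 8 macrophage markers all were detected, with a summed level of 4900 to 4964 CPM (counts scaled to library size, with TMM factors) on MSA-DA and 5477 to 5542 CPM on MSA-ZW. Between the gels 4 of these 8 markers were called in either direction by the edgeR test described below, beside 13.4% of all tested genes. The marker lists of T cells, fibroblasts, endothelial, epithelial, dendritic cells and neutrophils each summed to at most 1.87 CPM in any library, and Cd3d, Cd8a, Epcam, Krt18, Dcn and S100a9 were at 0. The part of the macrophage markers in the results below was not tested. That of the 18S locus was examined only through a fit whose scaling leaves the locus out, given at the end. In bulk RNA, fewer cells of a type and less RNA per cell cannot be told apart. The labels do not tell whether libraries of a gel are separate cultures, and the p-values therefore reflect the spread between these libraries alone, which may be technical. Below, means are followed by ± SD over n = 3 libraries.

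Of the 63 members, 52 had enough counts to be tested, and 21 of these rose on MSA-DA while 0 fell (edgeR quasi-likelihood test, Benjamini-Hochberg adjusted p below 0.05). Over all 12467 tested genes 6.92% were called higher and 6.5% lower, and over the 3695 genes whose mean reached 64 CPM, as that of 34 tested members did, 14.3% were called higher. Of those 34 members 18 rose. The median log2 difference of the tested members, MSA-DA minus MSA-ZW, was 0.10, beside 0.00 over all tested genes. The rises were small, from 1.06-fold for Srsf1 to 1.37-fold for Clk4. In 26 of the 52 tested members every MSA-DA library lay above every MSA-ZW library and in 0 every one lay below, where 14.7% and 13.7% of all tested genes did so. Without MSA-DA replicate 2 the count of rises was 13 (beside 3.74% of all tested genes), without MSA-ZW replicate 2 it was 14 (beside 5%), and with limma on log2(FPKM + 1) it was 12 (beside 3.83%). In the other fits the share of all tested genes called higher was 4.66% without MSA-DA replicate 1, 4.06% without MSA-DA replicate 3, 5.59% without MSA-ZW replicate 1 and 6.45% without MSA-ZW replicate 3, where 6.57% were lower. It was 6.8% with RLE size factors, 6.67% with a replicate block, 8.09% with DESeq2, 3.76% with limma at a pseudocount of 0.1 and 0.865% with limma without a filter. Member results in these fits are given at the end.

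**Figure D1:**
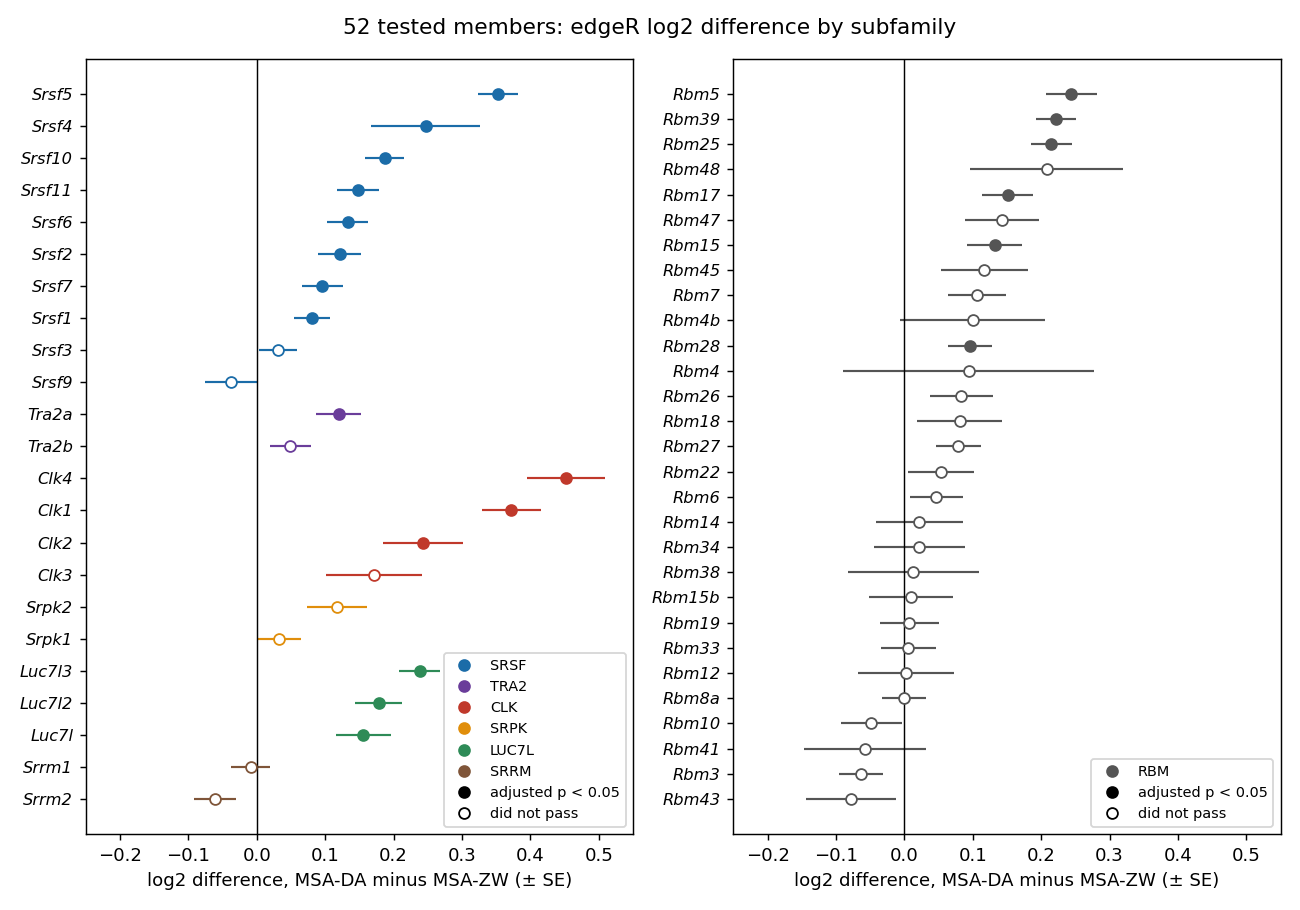
Each point is the edgeR log2 difference (MSA-DA minus MSA-ZW, horizontal axis) of a tested member, with a bar of 1 standard error. Filled points passed an adjusted p of 0.05, open points did not, and colours give the subfamily. All 21 filled points lie to the right of 0, with Clk4, Clk1 and Srsf5 farthest out.

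Of the 4 CLK kinases Clk4, Clk1 and Clk2 rose and Clk3 did not pass, where 6.92% of all tested genes were called higher. The rises of Clk4 and Clk1 were the 2 largest of all members. Clk4 (ENSMUSG00000020385, chromosome 11, 51152557 to 51172593, GRCm39), a dual-specificity kinase of SR proteins, stood at 55.5, 48.5 and 52.5 CPM in the MSA-DA libraries and 39.7, 37.3 and 37.1 CPM in the MSA-ZW libraries. Every MSA-DA library lay above every MSA-ZW library, and the level was 1.37-fold higher (log2 difference 0.45, SE 0.06, edgeR adjusted p = 5.21e-07). Clk1 (ENSMUSG00000026034, chromosome 1, 58449348 to 58463225, GRCm39), the best studied kinase of the family, stood at 88.8, 93.3 and 90.5 CPM against 73.6, 70.2 and 67.2 CPM. Its groups were also apart, and it was 1.29-fold higher (log2 difference 0.37, SE 0.04, edgeR adjusted p = 8.08e-08). Clk2, a further nuclear SR protein kinase, stood at 46.2, 42.9 and 43.3 CPM against 38.9, 35.2 and 37.5 CPM, 1.18-fold higher (edgeR adjusted p = 0.00378). Clk3 had the same order of groups, with a mean of 30.4 ± 2.31 versus 27.0 ± 1.11 CPM, and did not pass (edgeR adjusted p = 0.106). When each library was corrected for GC and length, Clk3 passed (edgeR adjusted p = 0.0389). Clk1, Clk2 and Clk4 kept their calls whichever library was left out. Summed over the 4 genes, CLK transcripts stood at 223.3, 214.8 and 214.6 CPM in the MSA-DA libraries and 179.4, 168.5 and 169.8 CPM in the MSA-ZW libraries, which is 26.1% higher in the mean.

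The promoter windows of Clk4, Clk2 and Srsf5, which rank among the largest rises, are shown to give the sequence at their starts. They are RefSeq windows of 250 bases before to 50 bases after the start, build GRCm38.p6, plus strand, printed 5′ to 3′. Capitals mark a CCAAT box (CCAAT), a GC box (GGGCGG), a cyclic AMP response element core (TGACGTCA) or a TATA box (TATAAA), searched on both strands, so that CCGCCC is a GC box of the other strand.
Clk4, chr11:51262864-51263163: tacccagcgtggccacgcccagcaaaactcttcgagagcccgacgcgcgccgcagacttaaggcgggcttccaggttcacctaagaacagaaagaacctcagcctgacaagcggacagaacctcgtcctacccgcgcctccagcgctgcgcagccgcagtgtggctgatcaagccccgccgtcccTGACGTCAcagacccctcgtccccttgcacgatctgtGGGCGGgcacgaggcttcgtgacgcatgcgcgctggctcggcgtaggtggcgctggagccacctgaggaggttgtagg
Clk2, chr3:89164545-89164844: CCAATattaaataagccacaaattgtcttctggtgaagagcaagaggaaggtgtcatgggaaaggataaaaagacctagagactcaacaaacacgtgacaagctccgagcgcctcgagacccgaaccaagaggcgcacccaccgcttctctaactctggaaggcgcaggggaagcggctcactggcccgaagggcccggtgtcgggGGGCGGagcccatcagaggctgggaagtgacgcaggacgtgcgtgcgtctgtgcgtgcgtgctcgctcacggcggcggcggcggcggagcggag
Srsf5, chr12:80945249-80945548: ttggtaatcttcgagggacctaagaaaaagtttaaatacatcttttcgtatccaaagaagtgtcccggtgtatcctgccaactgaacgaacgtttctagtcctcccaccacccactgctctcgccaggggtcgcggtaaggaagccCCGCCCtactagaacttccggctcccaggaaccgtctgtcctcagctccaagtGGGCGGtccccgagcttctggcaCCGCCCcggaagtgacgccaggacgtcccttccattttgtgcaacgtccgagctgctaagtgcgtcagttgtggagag
All 3 windows hold a GC box, the Clk4 window holds the full response element core, the Clk2 window holds a CCAAT box at its 5′ end, and no window of the 3 holds TATAAA. Entries were found for 55 of the 63 members, which leaves out Clk1. Among the 23 windows of the 19 members past the threshold that had an entry, 78.3% held a GC box, 43.5% a CCAAT box, 8.7% the response element core and 8.7% a TATA box. The same shares were 62.3%, 38.3%, 3.13% and 6.96% of the 11434 windows of all tested genes, and 57.9%, 36.8%, 3.51% and 14.0% of the 57 windows of all tested members with an entry. For the GC box and the CCAAT box, the shares over all tested members lay below those over all tested genes, and the shares in the 23 windows above. The 23 windows were picked by the call and are few, and none of these differences was tested. These matches describe letters in the windows and were not tested for binding.

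SRPK kinases, which act on SR proteins in the cytoplasm, did not pass. Srpk1, the main kinase for import of SR proteins, averaged 165 ± 2.72 CPM with MSA-DA versus 161 ± 4.25 CPM with MSA-ZW (edgeR adjusted p = 0.58). Srpk2, its close relative, stood at 83.0 ± 4.57 versus 76.7 ± 2.07 CPM (edgeR adjusted p = 0.074), with overlapping groups, and without MSA-DA replicate 1 it passed as higher (edgeR adjusted p = 0.032). Srpk3, a kinase of muscle, had 1 to 3 counts per library and was not tested. Whether CLK and SRPK genes differed in their response was not tested.

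The tested SRSF genes, which include SR-like proteins, had medians of 271 CPM and 42.2% GC. The share called higher was 6.92% of all tested genes, 14.3% of those of at least 64 CPM and 13.9% of those under 45% GC. Of the 10 tested SRSF genes 8 rose and 0 fell, with a median log2 difference of 0.13. Srsf5 (ENSMUSG00000021134, chromosome 12, 80992278 to 80997281, GRCm39), an SR protein that binds exonic enhancers, led them at 323, 334 and 335 CPM in the MSA-DA libraries and 266, 255 and 256 CPM in the MSA-ZW libraries. All 3 MSA-DA libraries exceeded all 3 MSA-ZW libraries, and Srsf5 was 1.28-fold higher (log2 difference 0.35, SE 0.03, edgeR adjusted p = 6.13e-11). Srsf10, which represses splicing when dephosphorylated during heat shock and mitosis, stood at 291, 289 and 282 CPM against 259, 247.2 and 252 CPM. Its groups did not overlap, and it was 1.14-fold higher (edgeR adjusted p = 2.05e-05). Srsf4, the SR protein with one of the longest arginine-serine tails, was far scarcer, at 24.5, 23.7 and 21.9 CPM against 21.3, 18.0 and 19.7 CPM. Its lowest MSA-DA library was only just above its highest MSA-ZW library, and it was 1.19-fold higher (log2 difference 0.25, SE 0.08, edgeR adjusted p = 0.0349).

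The other rises in this family were of 1.11-fold or less. Srsf11, an SR-like protein, was 1.11-fold higher, at 202 ± 4.10 versus 182 ± 4.99 CPM (edgeR adjusted p = 0.00113). Srsf6, a splicing regulator of many alternative exons, was 1.1-fold higher, at 285 ± 5.99 versus 259.7 ± 5.81 CPM (edgeR adjusted p = 0.00179). Srsf2 (SC35), the marker protein of nuclear speckles, was 1.09-fold higher (edgeR adjusted p = 0.00616). Srsf7, which also takes part in mRNA export, was 1.07-fold higher (edgeR adjusted p = 0.0269), and Srsf1 (SF2/ASF), the founding SR protein, was 1.06-fold higher at 603 ± 17.1 versus 570.3 ± 9.29 CPM (edgeR adjusted p = 0.0338). In each of these 5 genes every MSA-DA library lay above every MSA-ZW library.

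Of the SRSF genes that did not pass, Srsf3, which shares with Srsf7 a role in mRNA export, stood at 411 ± 11.7 versus 402 ± 5.04 CPM (edgeR adjusted p = 0.536). Srsf9, a small SR protein, stood at 99.0 ± 1.80 versus 102 ± 2.42 CPM (edgeR adjusted p = 0.599), and the groups of both genes overlapped. Srsf12 had no count in any library. Per length, Srsf1 was the most abundant SRSF transcript, at 105 FPKM (counts scaled by exonic length and library total) on MSA-DA and 100.02 FPKM on MSA-ZW, Srsf2 followed at 99.6 and 92.1 FPKM, and Srsf4 was the lowest tested, at 6.53 and 5.53 FPKM. Only 4 SRSF calls were left without MSA-DA replicate 2, without MSA-ZW replicate 2, and with limma on log2(FPKM + 1). In these fits 3.74%, 5% and 3.83% of all tested genes were called higher. Without 1 library Srsf4 lost its call for MSA-DA replicates 1 and 2 and MSA-ZW replicates 2 and 3 (edgeR adjusted p of 0.0515 to 0.18), and Srsf2 for MSA-DA replicate 2 and MSA-ZW replicate 2 (0.0574 and 0.0885). Srsf7 lost it without MSA-DA replicates 2 or 3 or MSA-ZW replicates 1 or 2 (edgeR adjusted p of 0.0779 to 0.173), and Srsf1 without MSA-DA replicates 2 or 3 or MSA-ZW replicates 2 or 3 (0.0571 to 0.282).

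The TRA2 pair are SR-like activators of exon inclusion. Tra2a was 1.09-fold higher, at 144 ± 0.811 versus 133 ± 3.39 CPM (edgeR adjusted p = 0.0133). Its call was lost without MSA-ZW replicate 2 or any 1 MSA-DA library (edgeR adjusted p of 0.0566 to 0.108), and with limma on log2(FPKM + 1) (limma adjusted p = 0.0713). Tra2b, the more widely studied of the pair, stood at 241 ± 4.48 versus 233 ± 5.91 CPM and did not pass (edgeR adjusted p = 0.323).

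**Figure D2:**
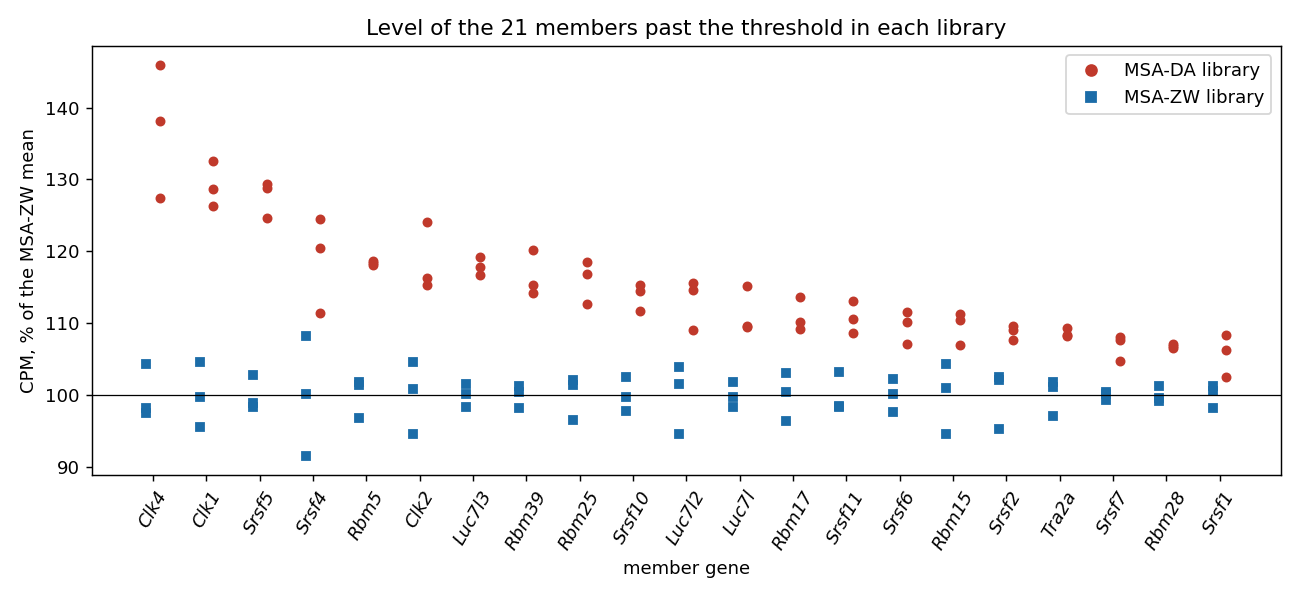
CPM of each of the 21 members that rose, as a percentage of its mean over the MSA-ZW libraries (vertical axis), in every library, ordered by log2 difference. Red circles are MSA-DA libraries and blue squares MSA-ZW libraries, and the groups are apart in each gene, most narrowly for Srsf1, Rbm15 and Srsf4.

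All 3 LUC7-like genes rose, where 6.92% of all tested genes and 14.3% of those of at least 64 CPM were called higher. The products of the LUC7-like genes are homologues of the yeast U1 small nuclear ribonucleoprotein factor Luc7 and act in the choice of 5′ splice sites. Luc7l3 (ENSMUSG00000020863, chromosome 11, 94178716 to 94212814, GRCm39), which has an arginine-serine tail, stood at 204, 202 and 207 CPM in the MSA-DA libraries and 174, 176 and 170.5 CPM in the MSA-ZW libraries. The groups were well apart, with a 1.18-fold higher level on MSA-DA (log2 difference 0.24, SE 0.03, edgeR adjusted p = 6.34e-07). Luc7l2, a gene deleted or mutated in some myeloid neoplasms, stood at 227, 225 and 214 CPM against 204, 199 and 185 CPM, 1.13-fold higher (edgeR adjusted p = 0.000325). Luc7l, its near relative, stood at 90.4, 90.5 and 95.2 CPM against 84.1, 81.3 and 82.4 CPM, 1.11-fold higher (edgeR adjusted p = 0.00697). Again no MSA-DA library fell within the MSA-ZW range. The call of Luc7l was lost when MSA-DA replicate 3 was left out (edgeR adjusted p = 0.0811). With limma on log2(FPKM + 1) only Luc7l3 passed, at a limma adjusted p of 0.0607 for Luc7l2 and 0.058 for Luc7l.

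The SRRM genes did not pass. Srrm2, a very large scaffold protein of nuclear speckles, stood at 717 ± 12.2 CPM with MSA-DA versus 748 ± 49.5 CPM with MSA-ZW (edgeR adjusted p = 0.215). Its MSA-ZW libraries stood at 767, 784 and 691 CPM, and without MSA-ZW replicate 3 Srrm2 passed as lower (log2 difference -0.12, edgeR adjusted p = 9.77e-05). Srrm1, an SR-related coactivator of splicing, stood at 339.6 ± 4.62 versus 342 ± 5.42 CPM (edgeR adjusted p = 0.883). Srrm3 and Srrm4, which drive neuronal microexon splicing, had no count in any library.

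**Figure D3:**
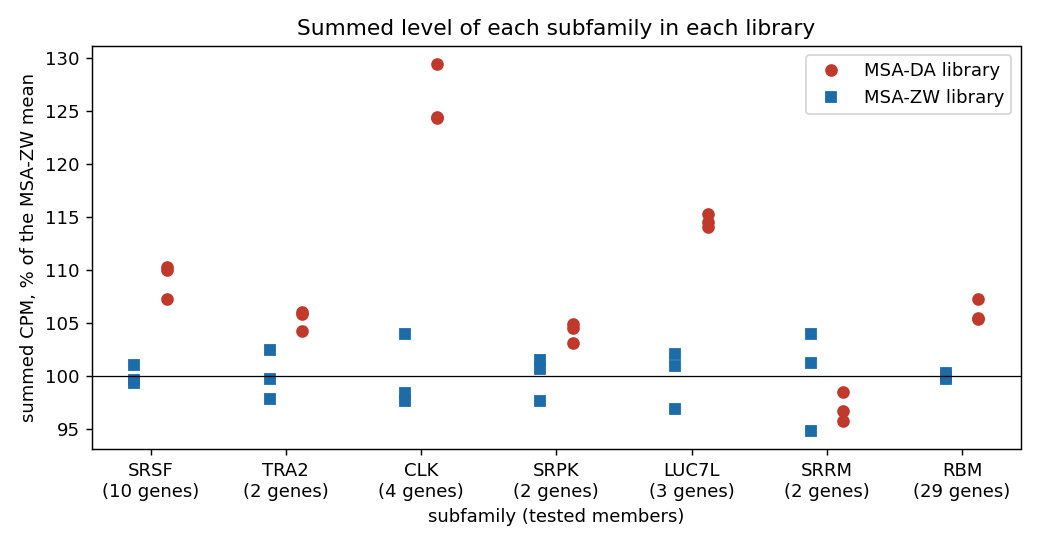
CPM summed over the tested members of each subfamily, as a percentage of the mean over the MSA-ZW libraries (vertical axis), in every library (red circles MSA-DA, blue squares MSA-ZW). The sums are apart, with MSA-DA higher, for 6 subfamilies and overlap for SRRM. CLK shows the widest gap, at 26.1%, and LUC7L the next, at 14.6%.

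The RBM genes are named for an RNA-binding motif and have varied roles. Of 29 tested RBM genes 6 rose and 0 fell, or 20.7% beside 6.92% of all tested genes. The share called higher was 14.3% for genes of at least 64 CPM and 13.9% for genes under 45% GC. The RBM medians were 70.8 CPM and 44.9% GC, so the excess over genes of like depth or GC content was smaller. The 3 largest of the 6 RBM rises were those of the splicing regulators Rbm5, Rbm39 and Rbm25. Rbm5, a regulator of the alternative splicing of apoptosis genes (ENSMUSG00000032580, chromosome 9, 107617570 to 107648195, GRCm39), stood at 117, 117 and 116 CPM in the MSA-DA libraries and 100.02, 100.44 and 95.5 CPM in the MSA-ZW libraries. The MSA-DA libraries were nearly equal and all above MSA-ZW, with a 1.18-fold higher level (log2 difference 0.24, SE 0.04, edgeR adjusted p = 9.84e-06). Rbm39, a homologue of the U2AF large subunit (ENSMUSG00000027620, chromosome 2, 155989159 to 156022158, GRCm39), stood at 331, 349 and 334 CPM against 285, 294 and 291 CPM. It was 1.17-fold higher with groups apart (log2 difference 0.22, SE 0.03, edgeR adjusted p = 8.45e-07). Rbm25, a U1-associated regulator of 5′ splice sites, stood at 350.4, 355 and 338 CPM against 306, 304 and 289 CPM. Its groups were apart too, and it was 1.16-fold higher (log2 difference 0.22, SE 0.03, edgeR adjusted p = 2.36e-06).

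Rbm17 (SPF45), a factor for 3′ splice site choice, was 1.11-fold higher, at 118 ± 2.46 versus 106 ± 3.60 CPM (edgeR adjusted p = 0.00472). Rbm15, an adaptor of the RNA methyltransferase complex that deposits m6A, was 1.1-fold higher (edgeR adjusted p = 0.0245). Rbm28, a nucleolar protein of ribosome assembly, was 1.07-fold higher, at 161 ± 0.383 versus 150.4 ± 1.73 CPM (edgeR adjusted p = 0.0394). The call of Rbm17 was lost when MSA-DA replicate 2 was left out (edgeR adjusted p = 0.0671) and that of Rbm15 without any 1 library other than MSA-ZW replicate 1 (0.053 to 0.149). Rbm28 lost its call whichever library was left out (edgeR adjusted p of 0.0641 to 0.143), and DESeq2 called neither Rbm15 nor Rbm28 (DESeq2 adjusted p of 0.0782 and 0.097). Without MSA-DA replicate 2 the family had 3 rises, where 3.74% of all tested genes were called higher.

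The other 23 tested RBM genes did not pass, and 18 of them had a log2 difference above 0. Their log2 differences ran from -0.08 to 0.21, and 21 of the 23 were within 1.1-fold. The highest value, that of Rbm48, was 0.07 without MSA-ZW replicate 1 and 0.35 without MSA-ZW replicate 3. Without MSA-ZW replicate 3, Rbm48 and Rbm45 passed as higher (edgeR adjusted p of 0.039 and 0.0336). The most abundant per length was Rbm3, the cold-inducible RNA-binding protein that supports translation at low temperature, at 82.1 ± 3.79 FPKM on MSA-DA and 86.2 ± 3.70 FPKM on MSA-ZW (edgeR adjusted p = 0.216). In the fit corrected for GC and length Rbm3 passed as lower (log2 difference -0.12, edgeR adjusted p = 0.00214). Rbm8a (Y14), a core protein of the exon junction complex, stood at 54.1 ± 0.605 versus 54.4 ± 2.01 FPKM (edgeR adjusted p = 0.999). A few further RBM genes were chosen here by role after their values were seen, beginning with relatives of members that rose, and differences between relatives were not tested. Rbm10, the closest relative of Rbm5 and likewise a regulator of exon skipping, averaged 76.2 ± 3.86 CPM with MSA-DA versus 78.8 ± 1.55 CPM with MSA-ZW (edgeR adjusted p = 0.542). Rbm6, a further relative that neighbours Rbm5 on the chromosome, averaged 94.3 ± 1.21 versus 91.3 ± 3.30 CPM (edgeR adjusted p = 0.51). Its groups were only just apart, with the lowest MSA-DA library at 93.5 CPM and the highest MSA-ZW library at 93.3 CPM. Rbm15b, the relative of Rbm15 with the same role as an m6A adaptor, averaged 36.8 ± 1.11 versus 36.5 ± 2.0 CPM (edgeR adjusted p = 0.944). Of genes with other roles, Rbm7, a subunit of the nuclear exosome targeting complex, averaged 85.0 ± 3.09 versus 79.0 ± 2.60 CPM with groups apart (edgeR adjusted p = 0.0972). Rbm22, which contacts the catalytic core of the spliceosome, averaged 61.1 ± 1.83 versus 58.8 ± 2.30 CPM (edgeR adjusted p = 0.531). Rbm47, a partner of the APOBEC1 RNA-editing enzyme, averaged 45.3 ± 1.03 versus 41.0 ± 1.05 CPM, also with groups apart (edgeR adjusted p = 0.078). Groups were apart with MSA-DA higher in 4 of the 23 RBM genes that did not pass, beside 14.7% of all tested genes.

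In simulated data for this comparison, the fit recovered 16.2% of 1.1-fold and 70.6% of 1.2-fold changes among genes of at least 10 CPM. The simulation changed 50 genes per fold among 12467, whereas 1673 genes were called in the data. Its recovery therefore need not hold for the members. In the data, 7 of the 21 members that rose were under 1.1-fold. Small changes among the RBM genes that did not pass may still have been missed, which was not tested.

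The 11 members that could not be tested were all near or at 0. No count was found in any library for Srsf12, Srrm3, Srrm4, Rbm20, Rbm24, Rbm31y and Rbm46. Rbm20, the titin splicing factor of heart, and Rbm24, a splicing factor of striated muscle, are tissue-restricted genes. Rbm11 and Rbm44 had 1 count each over all 6 libraries, Srpk3 had 10 counts, and Rbm42 had 1, 4 and 3 counts on MSA-DA and 1, 0 and 0 on MSA-ZW. In the GENCODE M21 annotation 75.4% of the exonic bases of Rbm42 are also exons of Gm21982 on the same strand. The sources used here do not give the rule by which reads in shared exons were counted, and its low count cannot be read as low expression. Of the members that rose, Srsf4 shares 43.0% of its exonic bases with Gm12992, Luc7l2 18.9% with Gm26699 and Srsf2 15.6% with Mettl23, each on the opposite strand. Without the 14 tested members that share at least 5% of their exonic bases with another gene, 18 of 38 rose and 0 fell. Over all tested genes 6.92% were called higher and 6.5% lower, and 14.3% of those of at least 64 CPM were called higher. Clk1 and Clk4, Luc7l and Luc7l2, and Rbm4 and Rbm4b are similar pairs that may share reads.

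Members were poor in G and C, a property the symbol pattern did not use. The longest annotated transcript had a median GC content of 44.6% over the tested members, 43.0% over those that rose and 49.1% over all tested genes. The whole transcriptome showed a relation with this property: 13.9% of tested genes under 45% GC were called higher and 2.34% lower, against 4.3% and 8.12% of genes from 45% GC. Members rose in both ranges, in 14 of 29 under 45% GC and in 7 of 23 from 45% GC. With each library corrected for GC and length, 17 members rose and 1 fell, beside 5.54% and 5.31% of all tested genes, and 16 of the 17 had also risen without it. Srsf1, Srsf7, Tra2a, Rbm15 and Rbm28 lost their calls in that fit (edgeR adjusted p of 0.779, 0.536, 0.0862, 0.119 and 0.0594), and the median log2 difference of the tested members was 0.08 in place of 0.10. For the 29 members under 45% GC the median went from 0.10 to 0.05, and for the 23 from 45% GC from 0.05 to 0.08.

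**Figure D4:**
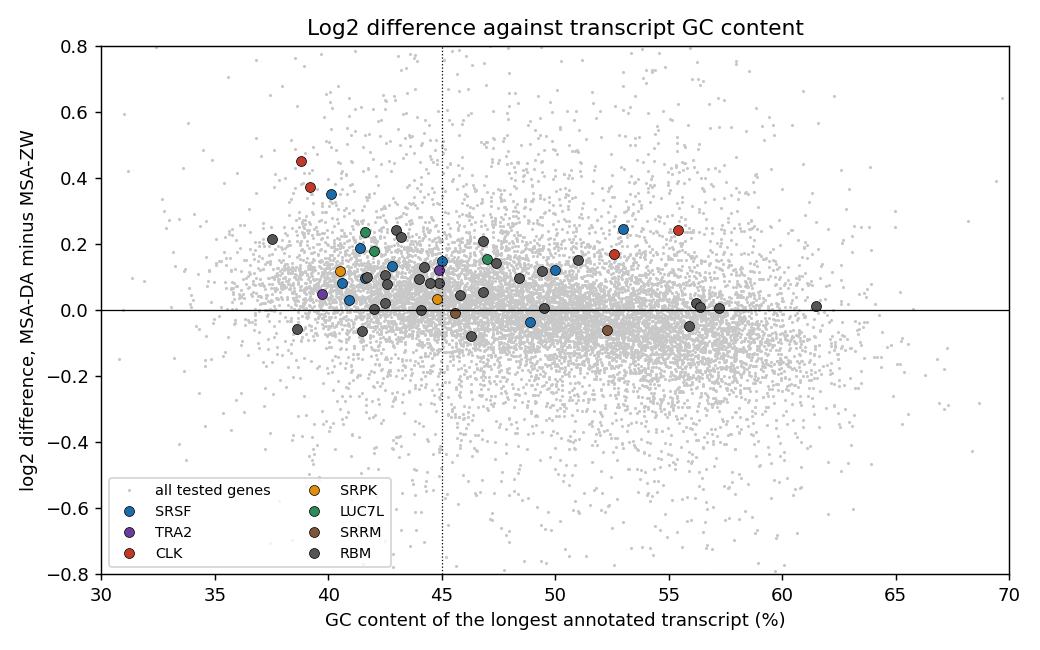
Log2 difference (MSA-DA minus MSA-ZW, vertical axis) against the GC content of the longest annotated transcript (horizontal axis). Grey dots are all tested genes, of which those beyond the plotted range are not drawn, and coloured points are the 52 tested members. The dotted line marks 45% GC, and members above 0 lie on both sides of it.

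Members that rose also had many annotated transcript forms outside the coding set. In GENCODE M21, 20 of the 21 (95.2%) have a transcript classed as retained intron and 17 (81.0%) one classed as subject to nonsense-mediated decay, Srsf10 having neither. Of the 31 tested members that did not pass, 71.0% and 51.6% have such transcripts, and of all tested genes 53.8% and 26.4%. The sets differ in depth, with a median of 189 CPM for the members that rose, 70.8 CPM for those that did not pass and 27.9 CPM for all tested genes. They also differ in the number of annotated transcripts, with medians of 10, 7 and 5 in the same order. The part of depth and of transcript number in these shares was not tested. Rbm5 has 13 retained-intron transcripts, Srsf11 has 11, and Clk1, Clk4 and Rbm39 have 7 each. Gene-level counts do not tell which form supplied the reads.

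Other genes of the SR protein system were counted in 5 lists. Of 31 tested SR-related and RS-domain genes 9 rose and 0 fell, with a median log2 difference of 0.05. This share of 29.0% stands beside 6.92% of all tested genes and 14.3% of those of at least 64 CPM. The median level of this list was 114 CPM. Rsrp1, an arginine-serine-rich protein of little known function, was 1.36-fold higher, at 225 ± 1.47 versus 166 ± 7.0 CPM (edgeR adjusted p = 2.36e-12). Arglu1, an arginine- and glutamate-rich coactivator whose own transcript retains an intron, was 1.28-fold higher at 109 ± 3.85 versus 85.3 ± 1.46 CPM (edgeR adjusted p = 3.71e-08). Pnn (pinin), a nuclear speckle partner of SR proteins, was 1.2-fold higher (edgeR adjusted p = 1.03e-07). The members of this list that did not pass included Son, Bclaf1, Thrap3 and Snrnp70, chosen here after their values were seen, with log2 differences of 0.05, 0.03, -0.01 and 0.00.

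Among 12 tested genes for import, export and phosphatases 2 rose and 0 fell, with a median log2 difference of 0.02. This share of 16.7% stands beside 6.92% of all tested genes. The median level of this list was 183 CPM, and the share is close to the 14.3% called higher among genes of at least 64 CPM. Nxf1, the main mRNA export receptor, was 1.15-fold higher at 127 ± 4.15 versus 110.0 ± 1.13 CPM (edgeR adjusted p = 8.37e-05). Hsp90aa1, an inducible HSP90 that chaperones SRPK1, was 1.13-fold higher (edgeR adjusted p = 1.87e-09). After the GC and length correction 3 genes of this list rose and 1 fell, where 5.54% and 5.31% of all tested genes did. Of 8 tested other kinases of the system 1 rose, or 12.5%. The shares called higher were 6.92% of all tested genes and 14.3% of those of at least 64 CPM, and the median level of these kinases was 113 CPM. The kinase that rose was Prpf4b (PRP4 kinase), at 141 ± 2.12 versus 122 ± 3.32 CPM (edgeR adjusted p = 3.99e-05).

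Among 14 tested nonsense-mediated decay genes 1 rose and 1 fell, or 7.14% each, which is close to the 6.92% and 6.5% of all tested genes. Smg6, the endonuclease that cleaves the target RNA, was 1.29-fold lower, at 188 ± 4.83 versus 242 ± 8.32 CPM (log2 difference -0.37, edgeR adjusted p = 1.50e-10). Upf3b, an exon junction-bound decay factor, was 1.1-fold higher (edgeR adjusted p = 0.0459) and lost its call whichever library was left out (0.0622 to 0.229). Cirbp, the cold-inducible relative of Rbm3 and the 1 gene of the fifth list, stood at 6.79 ± 1.37 versus 7.50 ± 0.375 CPM and did not pass (edgeR adjusted p = 0.544).

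**Figure D5:**
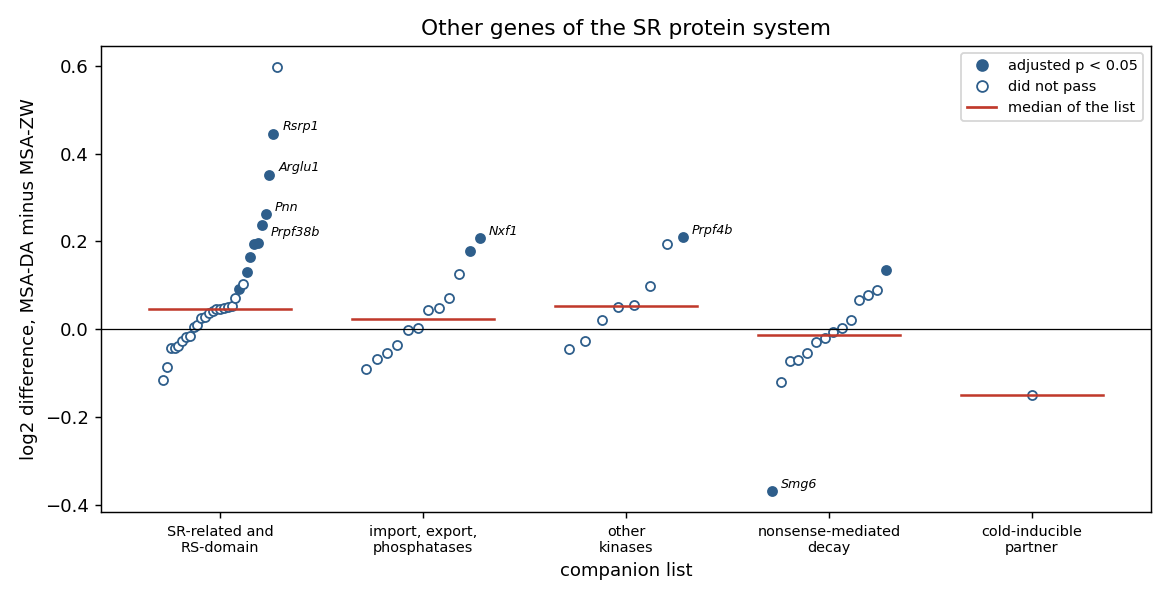
Log2 difference (MSA-DA minus MSA-ZW, vertical axis) of each tested gene in the 5 lists, with filled points past an adjusted p of 0.05 and red lines at the list medians. Rsrp1 is the highest filled point and Smg6 the lowest, and the highest open point, U2af1l4, had few counts.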

How the data were processed

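RNA was sequenced from 6 libraries, grouped and numbered by their titles. The submitters' processing notes name GRCm39 as build and, as tools, HISAT2 2.2.1, cutadapt 1.9.1 and bcl2fastq 2.20.0.422. For the counting, tool, strand and annotation release were not given in the sources used here. In 1 table the authors deposited whole-number counts and FPKM values per gene and library, per the file headers, and the deposited FPKM equal count over exonic length and library total to within 0.005.

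Members were matched by symbol, and they and all lists were chosen with earlier results of these data known. Main test: edgeR 4.0.16 quasi-likelihood test in R 4.3.3 on the deposited counts of the whole table (TMM, filterByExpr, group the only term, Benjamini-Hochberg over 12467 genes, threshold 0.05). CPM use TMM-scaled library sizes. The SE is the log2 difference over the square root of F. Called members were all named, with the 2 highest in FPKM of the others per subfamily, and up to 3 called genes per direction and companion list.

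Alternatives were DESeq2 1.42.0, RLE factors, no filter, limma 3.58.1 on log2(FPKM + 1) or log2(FPKM + 0.1), other scaling, a replicate block, a spline correction of each library for GC content and length (GENCODE M21 transcripts, all 63 members matched), and leaving out each library. The exon-sharing count and the splits at 64 CPM and 45% GC were chosen after seeing the data. The fit was tested on simulated data for 12467 genes, with 7 false calls.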

Additional observations from a re-analysis of the deposited data

How the results depend on the processing

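Among the alternatives run, no called gene named in the report changed direction. Of the 21 members that rose, 8 kept their call under every alternative that tested them (Srsf5, Srsf10, Clk1, Clk4, Luc7l3, Rbm5, Rbm25 and Rbm39) and 12 whichever library was left out. With limma on log2(FPKM + 1) the rises were 12 members in all, 4 SRSF, 0 TRA2 and 1 LUC7L, and the same with a pseudocount of 0.1. Without a filter on FPKM they were 8, 2, 0 and 1, with 3 RBM, 5 SR-related genes and 1 import, export and phosphatase gene. Of the members that rose, DESeq2 did not call Rbm15 and Rbm28 and gave Srsf4 no adjusted p. Without the filter on low counts Srsf1, Srsf7 and Rbm28 lost their calls (edgeR adjusted p of 0.0582, 0.0582 and 0.0946), where 3.26% of all genes in that fit were called higher. The GC and length correction left 0 TRA2 calls and gave 4 in the import, export and phosphatase list. Leaving out 1 library gave 13 to 20 member calls, 4 to 7 SRSF, 0 to 1 TRA2, 0 to 1 SRPK, 0 to 1 SRRM, 3 to 6 RBM and 1 to 2 decay-gene calls. These calls count both directions. The 20 calls, without MSA-ZW replicate 3, included the fall of Srrm2 (log2 difference -0.12), which was the SRRM call. The decay list had 1 call without the filter on low counts, with DESeq2, with limma in all 3 forms, with scaling that leaves out mitochondrial and ribosomal-RNA-like loci, and with the GC and length correction. RLE size factors left the member count at 21. Scaling that leaves out mitochondrial and ribosomal-RNA-like loci gave 20 member rises and 0 falls. Rbm28 was lost (edgeR adjusted p = 0.053), and Srsf1 was close to the threshold (edgeR adjusted p = 0.0488). In that fit 6.43% of all tested genes were called higher and 6.97% lower. With the replicate number as a block 20 members rose, Rbm28 being lost (edgeR adjusted p = 0.0502), and the decay list had 1 call. Libraries of the same number did not deviate together (correlations of 0.022, 0.008 and 0.001), so the numbers were not taken to pair them. Genes under 10 CPM, such as Cirbp, are limited by depth. Rbm4 was also under 10 CPM, and 60.5% of its exonic bases are exons of Gm21992 on the same strand. Its low count, like that of Rbm42, cannot be read as low expression.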
